A study of Mus musculus with 6 samples.

Results

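In sorted cells of the mouse olfactory epithelium labelled as horizontal basal cells, 458 of 163659 open chromatin regions (0.280%) held almost no transposase cut sites before injury and were open 24 hours after it. The regions were chosen by these measured values. The genome of chromosomes 1 to 19 was divided into 500 bp tiles, tiles with a mean level of at least 5 times the median nonzero tile over the 6 libraries were called open, and adjacent open tiles were merged. A region entered the set when its cut sites per 1000000 (CPM, over barcodes with 2000 or more fragments) were under 0.3 in each uninjured library and over 1 in each injured library. The difference in level between the groups is therefore a description of how the regions were chosen and carries no test. Of the 458 regions, 230 were 500 bp wide, 222 were 1000 bp and 6 were 1500 bp, and together they covered 346000 bp.

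The measurements came from single-cell ATAC-seq, in which the transposase Tn5 inserts sequencing adapters into accessible DNA and each fragment end marks a cut site. All 6 samples were adult Krt5Cre ER; Rosa26 LSL-YFP/LSL-YFP mice, in which a tamoxifen-inducible Cre under keratin 5 control marks basal cells and whatever they give rise to, so the YFP label records lineage and not current cell state. The 3 uninjured samples had the treatment label control and the 3 injured samples were taken 24 hours after an intraperitoneal injection of methimazole, a drug that destroys olfactory neurons and sustentacular cells. Mice were 8 weeks old in replicate 1 of both groups, 6 weeks in replicate 2 and 6 to 7 weeks in replicate 3, and sorted YFP-positive, propidium iodide-negative cells of the dorsal epithelium were profiled. The libraries are called uninjured 1 to 3 and injured 1 to 3 after these replicate numbers.

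Depth differed between libraries. They held 8100227 to 23937953 fragments, and the kept barcodes, 420 to 1338 per library, held 14825320 to 44875242 cut sites. In uninjured 1, the shallowest, a region at 0.3 CPM holds fewer than 5 cut sites, so single uninjured values below that limit are coarse. The labelled cell type was checked on promoter windows 1000 bp either side of the start. Those of the basal keratins Krt5 and Krt14 stood at 24.8 to 41.3 CPM and 22.3 to 35.5 CPM in the uninjured libraries, and at 19.4 to 27.7 CPM and 24.9 to 33.7 CPM in the injured ones. Of the 11 listed basal cell promoters, the windows of Trp63 (0.670 to 1.013 CPM) and Itga6 (0.270 to 0.422 CPM) were nearly closed in every library. Other starts of these genes were not measured, so these values do not show that the genes lack an open promoter. The 11 summed to 154 to 211 CPM before injury and 115 to 146 CPM after it, and edgeR called 1 of them lower, Icam1 (log2 change -0.68, adjusted p = 0.026). Promoters of 9 sustentacular genes summed to 55.6 to 72.1 CPM before and 36.6 to 38.1 CPM after injury, and 3 were called lower (Ermn, Ces1d and Muc2). Promoters of 11 immune genes summed to 3.24 to 4.39 CPM before injury and 6.64 to 9.08 CPM after it, with 4 of the 11 at 0 in at least 1 library. Among them Ptprc, the pan-leukocyte marker, was at 0 to 0.809 CPM before and 0.224 to 0.579 CPM after injury, and Csf1r, a receptor of macrophages, was the 1 immune promoter called higher, from 0.675 to 0.728 CPM before to between 1.85 and 3.10 CPM after (log2 change 1.99, adjusted p = 0.015). Promoters of 9 mature olfactory neuron genes summed to 54.1 to 71.3 CPM before injury and 33.5 to 91.5 CPM after it, highest in injured 3. Among all promoters tested, 2.22% were called higher and 1.69% lower, and promoter CPM fell in the median by 0.31 on the log2 scale over 14211 promoters above 1 CPM. Library levels are sums over all kept barcodes, and these include cells with open promoters of other types. When cells were clustered by their open regions, they were found in several clusters, among them clusters 7 and 8 (93 and 66 cells of injured 3; cluster 7 is led by genes such as the olfactory neuron genes Omp and Gng13) and cluster 9 (83 cells of uninjured 2; led by genes such as the sustentacular Cyp2g1). The part of these other cell types in the results was not tested.

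Horizontal basal cells are the reserve stem cells of the olfactory epithelium. They lie on the basal lamina, are quiescent in the intact tissue, and after severe injury enter the cell cycle and rebuild all lineages. A distal regulatory region that is closed in resting cells becomes open when transcription factors displace nucleosomes from it. AP-1, a dimer of Fos and Jun family proteins that is induced by stress and growth signals, is the factor best known for such opening in wounded epithelia. It binds the 7 letters TGACTCA, which read TGAGTCA on the opposite strand. TEAD proteins, the DNA-binding partners of YAP and TAZ, and RUNX proteins bind many of the same enhancers in epithelial cells.

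The sequences below are from 6 of the regions, read from the GRCm38 reference, plus strand, 5′ to 3′. The first 5 are among the 10 regions with the highest mean injured level and have the AP-1 letters in their highest tile. Each is a window of 200 bp centred on the copy of the letters nearest the cut-site summit, with every copy in capitals. The last, from the region with the highest level that has no copy anywhere, is centred on its summit.
Map3k4 region, chr17:12275752-12275951: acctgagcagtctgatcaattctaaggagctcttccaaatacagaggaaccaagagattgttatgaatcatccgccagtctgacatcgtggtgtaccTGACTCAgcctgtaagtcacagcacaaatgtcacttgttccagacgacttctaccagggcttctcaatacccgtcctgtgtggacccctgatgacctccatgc
Nprl3 region, chr11:32251006-32251205: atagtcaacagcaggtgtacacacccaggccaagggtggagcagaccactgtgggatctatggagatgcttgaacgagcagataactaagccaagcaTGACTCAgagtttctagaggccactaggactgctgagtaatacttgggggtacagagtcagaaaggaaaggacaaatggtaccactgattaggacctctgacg
Ecm1 region, chr3:95726084-95726283: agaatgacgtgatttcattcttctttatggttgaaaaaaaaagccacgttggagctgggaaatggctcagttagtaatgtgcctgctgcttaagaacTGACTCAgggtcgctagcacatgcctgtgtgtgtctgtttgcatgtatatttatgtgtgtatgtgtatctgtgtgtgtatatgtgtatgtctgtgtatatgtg
Gmcl1 region, chr6:86717319-86717518: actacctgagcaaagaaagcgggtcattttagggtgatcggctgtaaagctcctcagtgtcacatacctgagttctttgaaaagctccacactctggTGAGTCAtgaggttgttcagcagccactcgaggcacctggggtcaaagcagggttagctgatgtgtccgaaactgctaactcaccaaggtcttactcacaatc
Nrp1 region, chr8:128165019-128165218: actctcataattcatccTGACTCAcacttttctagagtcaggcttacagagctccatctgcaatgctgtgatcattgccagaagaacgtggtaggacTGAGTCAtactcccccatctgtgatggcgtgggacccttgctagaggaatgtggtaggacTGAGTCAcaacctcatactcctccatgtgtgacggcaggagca
Slc29a2 region, chr19:5013322-5013521: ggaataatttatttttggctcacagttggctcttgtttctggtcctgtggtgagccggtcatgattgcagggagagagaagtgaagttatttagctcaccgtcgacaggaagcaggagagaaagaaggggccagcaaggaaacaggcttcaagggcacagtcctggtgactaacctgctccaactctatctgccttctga
The Nrp1 window holds 3 copies and the other AP-1 windows 1 each. The Slc29a2 window shows that a region among the highest after injury can lack these letters altogether. The highest region of all, 1 of 2 near Tnc, has no copy in its highest tile and 1 elsewhere, and the Col6a3 region, also among the 10 highest, has none. The regions are named after the nearest protein-coding start, which is a label and not a target. In the Gmcl1 window part of the sequence is coding.

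Some libraries list identical fragments, and this bears on the uninjured values. Fragments with the same barcode and the same ends were listed in more than 1 library. Uninjured 3 and injured 3 had 754280 such fragments in common, 4.50% and 3.92% of their totals, and 34 kept barcodes. Uninjured 1, uninjured 2, injured 1 and injured 2 shared 121164 to 258230 fragments pairwise, and between these 4 libraries and the other two at most 3 fragments were shared. Leaving out the copy under the shallower barcode removed 1.66%, 0.0763% and 2.41% of the fragments at the chosen regions in uninjured 1 to 3. The rule then found 464 regions, among them all 458, and the summed level at the 458 in the uninjured libraries became 52.6, 67.6 and 68.1 CPM.

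As deposited, the 458 regions together held 53.4, 67.6 and 69.8 CPM in uninjured 1 to 3, a mean of 63.6 ± 8.90 (SD, n = 3). They held 1715, 1277 and 699 CPM in injured 1 to 3, a mean of 1231 ± 510 (SD, n = 3). The rule does not allow the groups to overlap. Among the injured libraries, injured 3 was the lowest by far. The median region stood at 0.135, 0.152 and 0.158 CPM before injury and at 3.33, 2.43 and 1.32 CPM after it. Injured 3 gave the lowest of the 3 injured values at 424 of the 458 regions (92.6%), against 28.2% of all open regions. Each region had 1 to 21 cut sites over the 3 uninjured libraries together (median 12) and 108 to 916 over the 3 injured ones (median 259). None was at 0 in all 3 uninjured libraries, although 150 were at 0 in uninjured 1, 26 in uninjured 2 and 35 in uninjured 3.

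**Figure D1:**
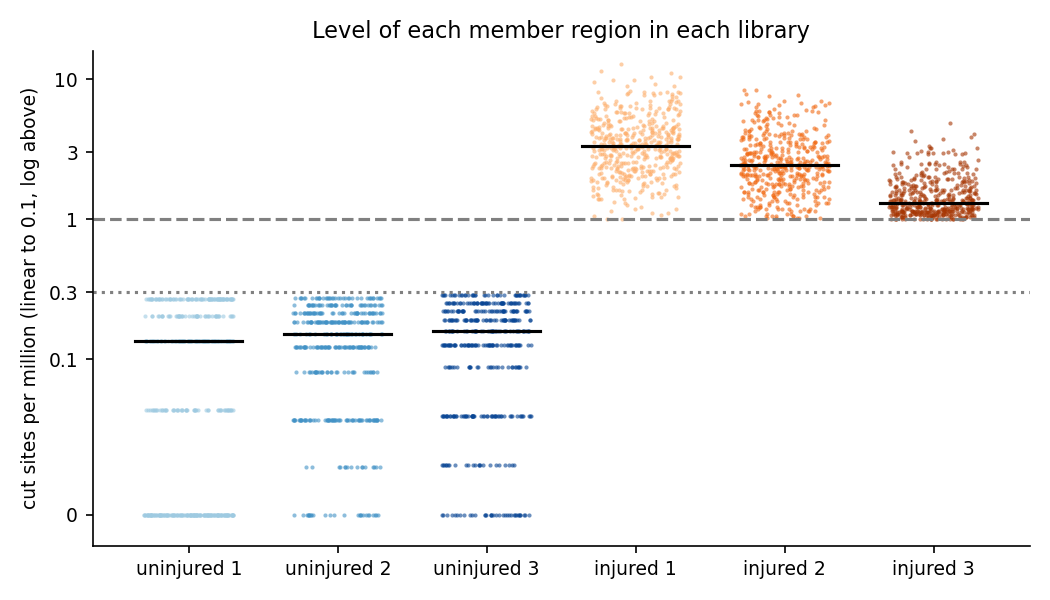
Level of each of the 458 regions (points) in each library, in CPM on an axis that is linear to 0.1 and logarithmic above, with the median as a black line. The dotted and dashed lines are the limits of the rule, 0.3 and 1; uninjured points form rows because few cut sites were counted, and injured 3 lies closest to its limit.

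With pooled counts of each group, and uninjured counts under 3 set to 3, the median region was 18.9-fold higher after injury (middle 50% of regions 12.2 to 29.4). In edgeR's quasi-likelihood test over all regions with Benjamini-Hochberg adjustment, all 458 were called higher, with log2 changes of 2.46 to 7.52 and adjusted p of 0.0069 to 0.043, beside 6.27% of the 153082 regions tested that were called higher. The rule used this contrast, so nothing is read from that count. Without injured 2 or without uninjured 1 edgeR called none of them, nor any other region, while 458 had an unadjusted p under 0.05 in both fits. DESeq2 on all 6 libraries called all 458.

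The limits were also applied with 1 library left out at a time. Every library had a part in the calling of open tiles, so the level in the library left out is not fully independent of the rule and is given as a description. When injured 1 was left out, 468 regions met the limits in the other 5 libraries, and 97.9% of them exceeded 1 CPM in injured 1, against 50.1% of all open regions. The same held for 91.6% of 500 regions in injured 2, against 47.5%. Left out in turn, injured 3 behaved differently, for 1266 regions met the limits without it and only 36.2% of these exceeded 1 CPM there, against 56.9% of all open regions. Their median in injured 3 was 0.840 CPM, where the 3 uninjured libraries averaged a median of 0.119 CPM. The limit applied to injured 3 thus had a large part in the size of the set. On the uninjured side, 72.9% of 628, 61.2% of 748 and 54.1% of 847 regions chosen without uninjured 1, 2 or 3 stayed under 0.3 CPM in the library left out, against 18.3%, 17.1% and 14.6% of all open regions.

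The region with the highest mean level after injury lies on chr4:64324001-64325000, 276986 bp upstream of the start of Tnc, which encodes tenascin C, a matrix glycoprotein of wounds. It was at 0, 0.213 and 0.253 CPM in uninjured 1 to 3 and at 12.8, 8.36 and 4.06 CPM in injured 1 to 3. Another region of this gene, chr4:64078001-64078500 at 30986 bp, was at 0.135, 0.0305 and 0 CPM before and 4.59, 2.07 and 1.12 CPM after injury. Both follow the order of the injured libraries seen over the whole set, with injured 1 highest and injured 3 lowest. That order held at 355 of the 458 regions, and it was not counted over all open regions.

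The next 2 regions in level are on chr19:5012501-5014000, near the nucleoside transporter gene Slc29a2, and on chr17:12275501-12276500, within Map3k4, a kinase of the stress-activated MAP kinase cascades. The Slc29a2 region stood at 0.270, 0.122 and 0.0317 CPM before injury and 10.4, 7.64 and 4.85 CPM after it. The Map3k4 region stood at 0, 0.274 and 0.222 CPM before and 11.01, 7.81 and 3.73 CPM after. At both regions the gap between the groups was wider than the 0.3 to 1 CPM that the rule requires. The region chr11:32250501-32252000 in an intron of Nprl3 went from 0.135, 0.122 and 0.222 CPM to 9.89, 8.32 and 3.64 CPM. The region chr3:95725501-95727000, 12569 bp downstream of the start of Ecm1, which encodes an extracellular matrix protein of skin, went from 0.270, 0.183 and 0.127 CPM to 10.5, 7.73 and 3.22 CPM. The other 5 of the 10 highest lie near Col6a3, Gmcl1, Bin1, Nrp1 and 2310034G01Rik, with injured means of 6.17 to 6.84 CPM and uninjured means of 0.0617 to 0.246 CPM. Nrp1 encodes neuropilin 1, a receptor for semaphorins and VEGF, and Col6a3 a chain of collagen VI.

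At the limits of the rule the set has no edge. When levels were taken per cut sites in open regions, 221 of the 458 stayed in the set, and with libraries thinned to equal cut sites 322 did. The 3 regions nearest to the uninjured limit from inside had a highest uninjured level of 0.285 CPM, and the 3 nearest from outside 0.305 CPM. From inside the injured limit, the lowest injured levels were 1.003 to 1.008 CPM, and from outside 0.980 CPM. Beyond the injured limit lay 6262 regions that were under 0.3 CPM in each uninjured library but did not exceed 1 CPM in each injured one.

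The summit of each region was the point of most cutting by mean CPM over all libraries. At the 458 regions most cut sites came from injured libraries, so a central peak after injury is built in by this choice. The profile is therefore a description. Around the summits, the mean profile of the regions showed a narrow peak after injury. In the central 100 bp the density was 11.7, 8.17 and 4.70 CPM per kb in injured 1 to 3, and 500 to 1000 bp away it was 0.327, 0.402 and 0.240 CPM per kb. For comparison, 24899 regions of at most 1500 bp that were over 1 CPM in all 6 libraries and had an injured mean within the range of the 458 were profiled in the same way. Their centres stood at 9.41, 7.53 and 9.83 CPM per kb in injured 1 to 3 and at 9.08 to 10.2 CPM per kb in the uninjured libraries. The peak was 200 bp wide above the midpoint between centre and flank in the injured libraries, for both kinds of region. In uninjured 1 to 3 the centres of the 458 held 0.309, 0.373 and 0.395 CPM per kb, against 0.110, 0.123 and 0.132 CPM per kb at 500 to 1000 bp and 0.281, 0.291 and 0.302 CPM per kb at 1500 to 2000 bp. Tiles that border a region lie below the level of an open tile by the way regions are called, which lowers the nearer flank. Against the farther flank the uninjured centres stood at 1.10, 1.28 and 1.31 times, and the injured centres at 18.6, 14.5 and 10.7 times. Over their full width the regions had 1.54, 1.70 and 1.87 times the uninjured density outside open regions, and 38.5, 24.3 and 16.5 times the injured one.

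**Figure D2:**
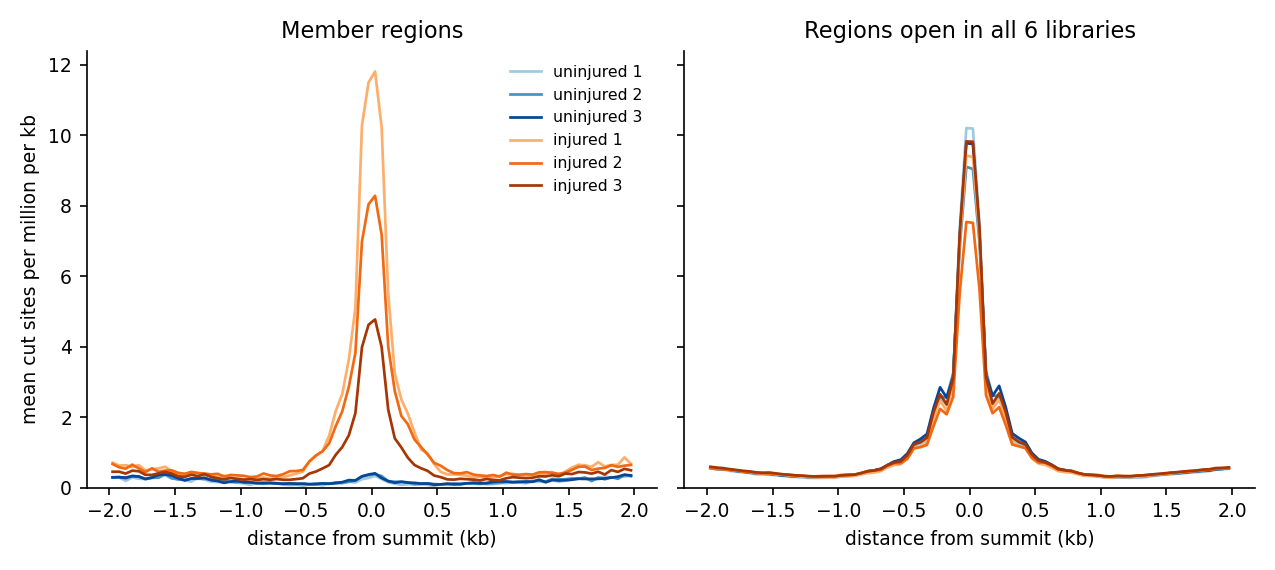
Mean density in CPM per kb against the distance from the summit in kb, in 50 bp bins, for the 458 regions (left) and for 24899 regions open in all 6 libraries (right), 1 line per library. The left panel has peaks of 4.70 to 11.7 in the central 100 bp of the injured libraries and nearly flat uninjured lines, while on the right all 6 lines rise to between 7.53 and 10.2.

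Fragment lengths give a view of the open DNA that the rule did not use. Fragments under 100 bp, which come from DNA without a nucleosome between the cuts, made up 38.6%, 40.3% and 43.3% of the fragments at the 458 regions in injured 1 to 3. At the 24899 regions open in all libraries they made up 37.2%, 38.9% and 42.2%. The share was higher at the 458 in 3 of 3 libraries, by 1.33 ± 0.129 percentage points (SD, n = 3), and the exact two-sided permutation test over libraries gave p = 0.25, the smallest that 3 libraries allow. The median width was 500 bp for the 458 and 1000 bp for the comparison regions, and the part of width in this difference was not tested. In uninjured 1 to 3 the few fragments at the 458 regions were longer, with 27.0%, 33.2% and 31.2% under 100 bp out of 482, 1311 and 1329 fragments, against 39.9%, 42.0% and 40.6% at the comparison regions.

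The AP-1 letters were common in the regions. The 7 letters, on either strand, were searched in the 500 bp tile with the highest mean level, so that all regions were searched over the same length. They were found in 304 of 458 regions (66.4%, 95% Wilson interval 61.9 to 70.6%), against 20.3% of all open regions and 17.8% of the 24899 regions open in all libraries. Of the 458, 210 held 1 copy, 83 held 2 and 11 held 3 or more, so 20.5% had at least 2, against 2.51% of all open regions. Counting the form TGANTCA, where N is any base, raised the share to 77.1%, against 26.7% of all open regions. The letters lay close to the point of highest cutting. In the 315 regions with a copy within 250 bp of the summit the median distance was 29 bp, against 40 bp in 4613 comparison regions. When the 458 were split into 3 parts of equal size by injured level, the share with AP-1 letters was 64.5%, 62.7% and 71.9% from the lowest part to the highest.

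These letters were nearly as frequent in other regions that opened. Among the 9139 further regions that edgeR called higher after injury, 62.6% had them, so a high share is not particular to regions that were nearly closed. The share was lower where the level before injury was higher. Among regions over 1 CPM in every injured library it was 68.2% where the uninjured mean was under 0.1 CPM, 63.2% between 0.3 and 0.5 CPM, 51.1% between 0.5 and 1 CPM, 30.4% between 1 and 2 CPM and 13.01% at 10 CPM or more. The regions at 10 CPM or more were also richer in G and C (median 57.8% against 45.0% in the lowest class), and 55.8% of them lay within 1 kb of a start, while in the class between 1 and 2 CPM these values were 46.8% and 3.03%.

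**Figure D3:**
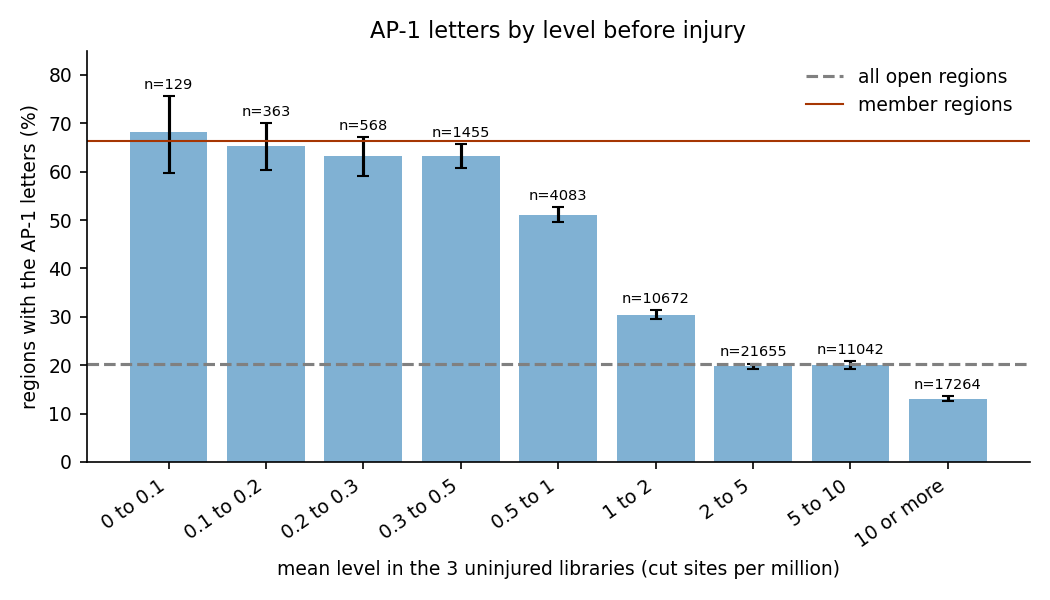
Percent of regions with the AP-1 letters in their highest 500 bp tile (bars, with 95% Wilson intervals) by mean level in the uninjured libraries, for regions over 1 CPM in each injured library; n is the number of regions. The share falls from 68.2% in the lowest class to 13.01% in the highest, across the line for all open regions at 20.3%, while the solid line marks the 458 regions at 66.4%.

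In percentage points, other letter strings differed less from the background, searched on both strands of the same tile. The RUNX letters TGTGGT were in 42.8% of the 458 regions and 34.3% of all open regions, and the TEAD letters GGAATG in 32.5% and 27.2%. Both were about as frequent in regions without AP-1 letters (44.2% and 31.8%) as with them (42.1% and 32.9%). NRF2 letters TGACNNNGC, whose first 4 letters AP-1 shares, were in 127 regions (27.7%, against 19.5%), and in 24 of these every match overlapped an AP-1 copy. C/EBP letters TTGCNNAA were in 24.0% against 20.5%, and the NF-kB motif in 3.06% against 2.71%. KLF/SP letters GGGCGGG, typical of promoters, were in 5.90% (95% Wilson interval 4.08 to 8.44%) against 10.1%. The intervals of the next 2 hold the share of all open regions, with ETS letters CCGGAAG in 2.18% (1.19 to 3.97%) against 3.89% and the CTCF motif in 1 region (0.218%, 0.0386 to 1.23%) against 0.982%, though the 24899 comparison regions had the CTCF motif in 2.70%. The Grainyhead letters AACCGGTT and the NFI motif were in none of the 458, and in 0.268% and 0.106% of all open regions. A match is a string of letters and not a measured binding site.

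Across the AP-1 letters, cut sites after injury dipped. At 272 regions whose nearest copy lay within 100 bp of the summit, cut sites per base within 5 bp of the letters' centre were 0.563, 0.656 and 0.685 of those 11 to 40 bp away in injured 1 to 3. At 3507 comparison regions the ratios were 0.672, 0.714 and 0.815, and in uninjured 1 to 3 they were 0.836, 0.784 and 0.884, so a dip was present there before injury too. Before injury only 12, 30 and 33 cut sites fell within 5 bp at the 272 regions, with ratios of 0.818, 0.861 and 0.928. The sequence preference of Tn5 at these letters was not measured.

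The regions lay far from promoters. Their median distance to the nearest protein-coding start was 49741.5 bp, against 31967 bp for all open regions, and 156 (34.1%) were over 100 kb away, against 22.9%. By their summits 258 were intergenic (56.3%, against 44.4%), 186 in introns (40.6%, against 47.7%) and 14 in exons (3.06%, against 7.86%). Only 4 (0.873%) came within 1 kb of the 5′-most start of a gene, against 8.49% of all open regions, and with any annotated start the share was 5.24%, against 13.9%. These 4 were chosen after their values were seen. They are at Ppbp, which encodes a CXC chemokine of platelets, at the keratin-associated protein gene Gm11563, at Sh2d1b1 and at Mustn1. The Ppbp region, chr5:90768001-90769000, stood at 0.202, 0.183 and 0 CPM before and 4.03, 3.38 and 1.26 CPM after injury. Base composition was ordinary, with a median of 45.7% G and C against 47.0%, and CpG pairs were few, 4.67 per tile on average against 8.74. Several of these traits were shared by the 9139 further regions that edgeR called higher. Of these, 1.99% lay within 1 kb of a 5′-most start, 6.67% within 1 kb of any annotated start, and 50.7% were intergenic. They had 5.36 CpG pairs per tile on average. Their median distance was 37600 bp, and 24.0% were over 100 kb away. Chromosome 3 held the largest share of its open regions in the set (41 of 9255, 0.443%) and chromosome 17 the smallest (9 of 6562, 0.137%).

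The regions were scattered over the genome. The regions had 421 different nearest genes, of which 390 had 1 region, 26 had 2 and 5 had 3 or more, and 42 regions (9.17%) had another of the set within 50 kb. No like share was computed for other sets of regions. Rfx3, which encodes a factor of ciliogenesis, had 4 regions over 438500 bp, and the summed level there went from 0.405 to 0.549 CPM in the uninjured libraries to 5.83 to 10.1 CPM in the injured ones. Cubn, which encodes the endocytic receptor cubilin, had 3 in its introns, with a summed 0.270 to 0.427 CPM before and 6.81 to 18.4 CPM after injury. Spry2, which encodes a feedback inhibitor of receptor tyrosine kinase signalling, had 3 regions 221319 to 289319 bp downstream, at 0.0675 to 0.305 CPM before and 4.59 to 14.5 CPM after. Sulf2, an extracellular sulfatase of heparan sulfate, and Mc2r, the receptor for adrenocorticotropic hormone, had 3 each. None of the Sulf2 regions had AP-1 letters, and all 3 of the Mc2r regions did.

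Of 118 annotated genes on 11 lists of epithelial repair, 10 (8.47%) were nearest to a region of the set, against 2.02% of all protein-coding genes. The lists were drawn up with results of these data known, so this count supports nothing on its own. Among ligands and receptors of the EGF family 3 of 12 were nearest to a region, namely Ereg, Btc and Nrg1, which all encode ligands. The Ereg region, chr5:91083001-91083500, is in an intron of that gene, has 2 AP-1 copies, and went from 0.135, 0 and 0.158 CPM to 4.66, 4.26 and 2.58 CPM. The Btc region stood at 0, 0.244 and 0.222 CPM before and 1.45, 1.73 and 1.18 CPM after, and the Nrg1 region at 0.0675, 0.183 and 0.285 CPM before and 1.96, 1.56 and 1.04 CPM after. Both lie close to the limits on each side. Among proteases and matrix genes 3 of 15 were nearest to a region. These are Tnc, Plau, which encodes urokinase, and Cd44, the hyaluronan receptor, whose region chr2:102956501-102957500 went from 0, 0.183 and 0.222 CPM to 7.71, 5.91 and 3.00 CPM. The Plau region stood at 0.270, 0.213 and 0.0633 CPM before and 3.19, 1.44 and 1.93 CPM after, with injured 3 above injured 2.

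Other listed genes nearest to a region came from further lists. Il1rl1, which encodes the receptor for interleukin 33, had a region at 35570 bp with 0.135, 0.183 and 0.190 CPM before and 7.04, 5.91 and 2.07 CPM after injury. Ccnd1, which encodes the G1 cyclin D1, had one at 24076 bp with 0.270, 0.152 and 0.253 CPM before and 4.30, 3.34 and 1.54 CPM after. Ppbp, described above, was the only chemokine. No region was nearest to any gene of the lists of wound keratins and cornified envelope, AP-1 subunits, YAP and TEAD targets, neurogenic factors or resting basal cells. Sprr3, a cornified envelope gene that is on no list and was noticed after its values were seen, had a region 2720 bp away, which went from 0.135, 0.244 and 0.190 CPM to 8.20, 7.05 and 2.55 CPM.

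Most promoters of the nearest genes were open before injury, and 20.4%, 20.9% and 20.9% of the 421 were under 1 CPM in uninjured 1 to 3, against 31.7%, 31.8% and 31.2% of all promoters. Over the 421 genes the median promoter stood at 13.4, 13.7 and 13.3 CPM in uninjured 1 to 3 and 11.3, 10.6 and 12.2 CPM in injured 1 to 3, above the median of all promoters (9.54 to 9.98 CPM and 8.19 to 9.36 CPM). EdgeR's changes are relative to its own scaling, under which the median promoter was near 0 despite the general fall in CPM given above. In edgeR with Benjamini-Hochberg adjustment over 16621 promoters, 24 of 385 tested promoters of these genes (6.23%) were higher after injury, beside 2.22% of all promoters, and 4 (1.04%) were lower, beside 1.69%. In 3 of the 24 the window itself holds a region of the set. The median log2 change over the 385 was 0.05, against 0.00 over all promoters tested. Leaving out each library in turn gave 7 to 29 higher and 0 to 8 lower, with 11 higher without injured 1, 7 without injured 2, 12 without uninjured 1 and 10 without uninjured 2, and 0 lower in each of these 4 fits. Of all promoters tested, 0.502%, 0.493%, 0.592% and 0.679% were higher in these 4 fits, and 4.45% without injured 3, where 29 of the nearest were. With the replicate number as a block, 19 of 397 were lower, beside 6.08% of all.

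Among the listed genes, the Ereg promoter rose from 2.36, 3.84 and 5.73 CPM to 9.78, 7.60 and 7.00 CPM (log2 change 1.295, adjusted p = 0.027), and the Ppbp promoter from 0.405, 0.183 and 0 CPM to 4.39, 4.14 and 1.51 CPM (4.64, adjusted p = 0.011). The Ppbp window holds the region of the set at that gene. Its rise was therefore built in by the choice of regions, and nothing is read from its p. The Cd44 promoter rose from 11.5, 12.9 and 13.7 CPM to 19.7, 17.1 and 15.2 CPM (0.74, adjusted p = 0.013), and that of Plau from between 9.63 and 10.5 CPM to between 11.01 and 14.9 CPM (0.65, adjusted p = 0.038). The Tnc promoter, the nearest protein-coding start to the region with the highest level after injury, was at 36.1, 33.8 and 13.9 CPM before and 16.2, 11.3 and 11.9 CPM after, and was not called (log2 change -0.78, adjusted p = 0.23). Btc, Nrg1 and Ccnd1 were not called either, and Il1rl1, at 0.507 CPM or less in every library, was too low to be tested. Of the 11 AP-1 subunit promoters none was higher, and those of Fosb and Junb were lower by the test (log2 changes -0.51 and -0.38, adjusted p = 0.0074 and 0.025). Beside 2.22% of all promoters higher and 1.69% lower, of 10 tested promoters of wound keratins and envelope genes 5 were higher, among them Krt16 (3.68, adjusted p = 0.0085) and Krt6a (2.96, adjusted p = 0.035), keratins of wounded epithelia. On the other lists, 1 of 12 tested promoters of EGF receptors and ligands was higher, 3 of 13 of proteases and matrix genes, 2 of 13 of chemokines and cytokines and 1 of 7 of the interleukin 1 family. The 2 chemokine promoters are those of Cxcl2 and of Ppbp, whose window holds a region of the set. None was higher on the lists of integrins and laminins (12 tested, 1 lower), YAP and TEAD targets (9 tested, 1 lower), resting basal cells (8 tested, 1 lower), cell cycle genes (10 tested, 0 lower) and neurogenic factors (9 tested, 0 lower). Over all promoters, 369 were called higher, and 84 to 117 without injured 1, injured 2, uninjured 1 or uninjured 2.

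In the summed libraries, more open cells and more opening per cell cannot be told apart, so the cells were examined. After leaving out barcodes with less than 20% of cut sites in open regions, 4393 cells remained, and they were grouped into 15 clusters from open regions without the 458. No doublet calling was done. Thinned to 1000 cut sites in open regions per cell, 5.12%, 9.29% and 7.48% of cells in uninjured 1 to 3 had at least 1 cut site in the 458 regions, and 77.1%, 67.2% and 37.2% in injured 1 to 3. Unthinned, the shares were 50.8%, 50.3% and 64.6% before and 96.7%, 91.8% and 83.8% after injury, without correction for depth. Median fragments per kept barcode were 11112.5, 8710 and 21702 in uninjured 1 to 3, and the shares before injury followed this order. In injured 1 to 3 the medians were 11994, 19428.5 and 18045.5, and the shares after injury did not follow them. Thinning left out 4 cells of uninjured 2 and 1 of injured 3.

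Opening was concentrated in 2 clusters. Cluster 1 (1010 cells, led by gene windows such as Krt16, Dsg3 and Ppbp, of which Ppbp holds a region of the set) had 31.4, 27.5 and 31.3 cut sites in the regions per 10000 in all open regions in injured 1 to 3. Cluster 5 (371 cells, led by genes such as Krt16, Krt6a and Il1f9) had 33.5, 32.1 and 32.4. Cluster 3, also mostly of injured cells, had 3.71, 3.48 and 3.22, and cluster 4, found in both groups, had 2.09, 1.74 and 2.13 in injured and 0.721, 1.21 and 0.632 in uninjured cells. Cluster 2, the largest in uninjured 1 and 2, with 289, 474 and 147 cells of uninjured 1 to 3, had 0.629, 0.973 and 0.623. Cluster 6, the largest in uninjured 3 with 167 cells and with at most 12 in any other library, had 1.43 there and held 49.0% of that library's cut sites in the regions. The values of clusters 1, 3, 4 and 5 were each close in the 3 injured libraries, and clusters 1 and 5 were alike and well above clusters 3 and 4. Clusters 1 and 5 were put together because of these values, so their contrast with the others is a description.

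**Figure D4:**
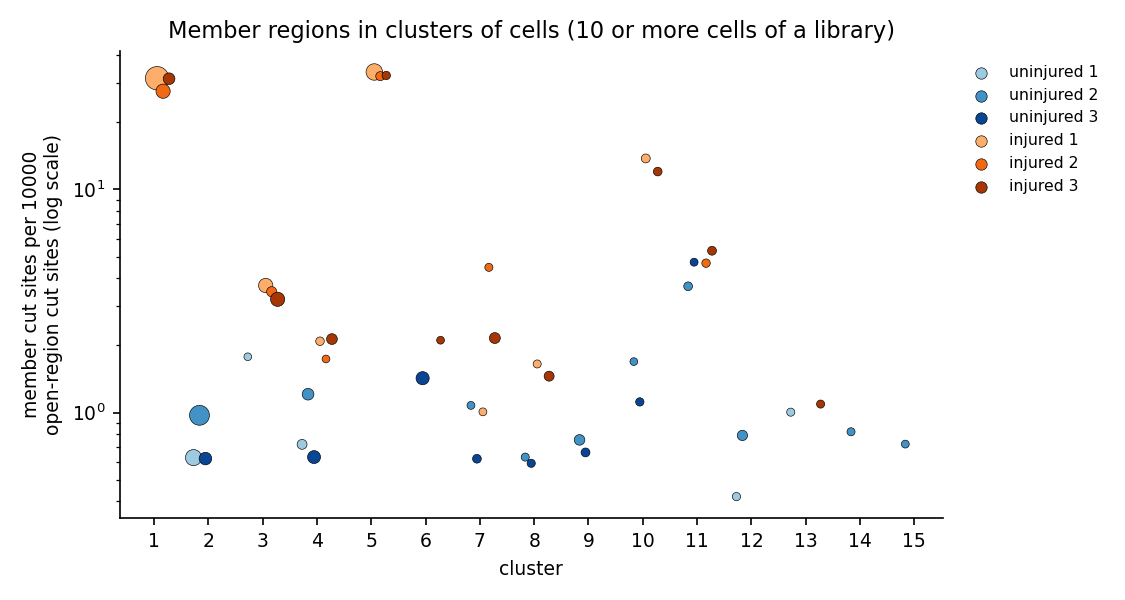
Cut sites in the 458 regions per 10000 cut sites in all open regions (log axis), by cluster and library, for clusters with 10 or more cells of a library; larger points hold more cells. Clusters 1 and 5 lie at 27.5 to 33.5 in the injured libraries, cluster 3 at 3.22 to 3.71 and cluster 2 of the uninjured libraries at 0.623 to 0.973.

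Clusters 1 and 5 held 986 of 1320 cells of injured 1 (74.7%), 248 of 403 of injured 2 (61.5%) and 143 of 717 of injured 3 (19.9%), and 93.8%, 94.5% and 75.05% of the cut sites in the regions. Within these cells the regions held 2330, 2080 and 2284 CPM in injured 1 to 3, where over all kept barcodes they held 1715, 1277 and 699. Since the 2 clusters were chosen for their levels, these values are a description. The median region stood at 4.46, 3.95 and 4.40 CPM there, and 458, 456 and 457 regions were over 1 CPM. The rule asked for over 1 CPM in each injured library, and these cells gave most of the cut sites. The counts were thus largely built in, and no like count was made over all open regions. In the cells of the same libraries outside clusters 1 and 5, the median region was at 0.810, 0.308 and 0.442 CPM. In injured 1, cluster 10, deep in fragments, carried much of this, with 38 of the 334 cells outside and 2681 of their 4724 cut sites in the regions. In injured 2 and 3 cluster 3 gave more, with 920 of 1631 and 2164 of 6215 cut sites. Cluster 10 gave 339 and 1916 there. Thinned to 1000 cut sites, 91.9%, 89.9% and 90.9% of the cells of clusters 1 and 5 had at least 1 cut site in the regions, against 33.5%, 31.0% and 23.7% of the other injured cells. The median fragments per cell were 12167, 21586 and 25423 inside and 11295, 13382 and 17319 outside.

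**Figure D5:**
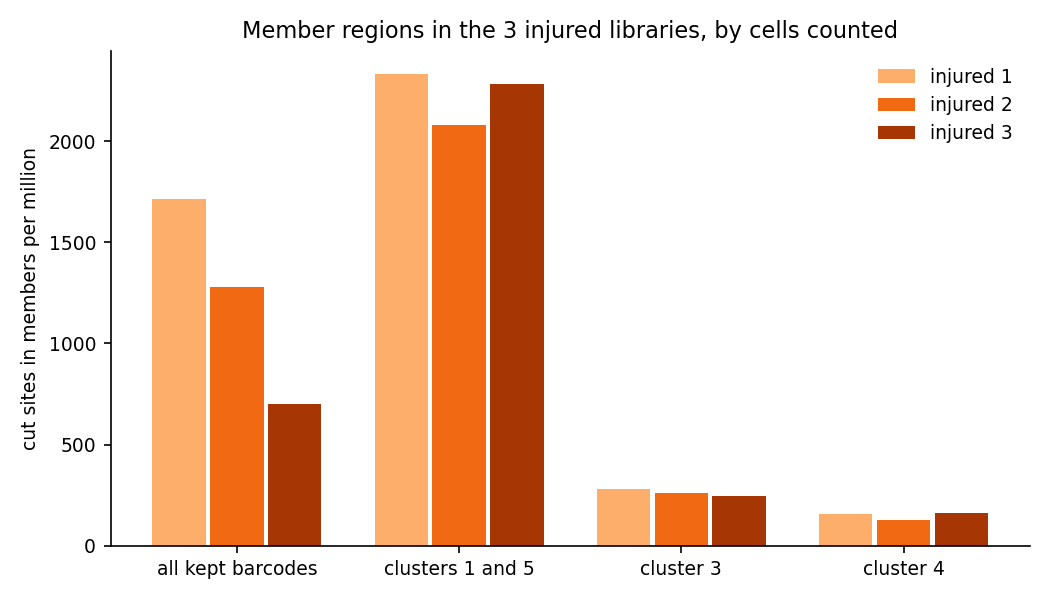
Summed level of the 458 regions in CPM in the 3 injured libraries (bars, 1 value per library, no error), over all kept barcodes and within cells of clusters 1 and 5, cluster 3 and cluster 4. The first group of bars falls from 1715 to 699, while the bars for clusters 1 and 5 stand between 2080 and 2330 and those for clusters 3 and 4 at or under 281.

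Only 4 uninjured cells fell in clusters 1 and 5, 1 of uninjured 1 and 3 of uninjured 3. They held 2011 to 2503 fragments, and the barcode of each of the 4 carried 35690 to 167522 fragments in an injured library that shares fragments with it. Single regions differed in how far they followed the 2 clusters. In injured cells the median region was at 4.40 CPM in clusters 1 and 5, 0.451 CPM in cluster 3 and 0.181 CPM in cluster 4, and 445 of the 458 had their highest level in clusters 1 and 5 among the groups of cells compared. Cluster 10 was not among these groups, and no like count was made over all open regions. Since clusters 1 and 5 were chosen for their levels, the count is a description. In 22 regions cluster 3 had more than 0.5 of the level in clusters 1 and 5, and in 11 cluster 4 did. The region chr18:66299501-66300500 near Ccbe1 was the furthest from the pattern, with 5.25 CPM in cluster 4 from 29 cut sites and 2.01 CPM in clusters 1 and 5. The Naaladl2 region chr3:24695001-24695500 had 2.42 CPM in cluster 3 from 43 cut sites and 1.59 CPM in clusters 1 and 5. Both were picked after their values were seen. Between clusters 1 and 5 the regions split about evenly, with 245 higher in cluster 5, and this too was not counted over all open regions.

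Clusters 10 and 11 had intermediate levels. Cluster 10, whose cells had 2.22 times the median fragments of their own libraries, had 13.8 and 12.01 per 10000 in injured 1 and 3, and 1.69 and 1.12 in uninjured 2 and 3, counting libraries with 10 or more of its cells. Cluster 11, of 118 shallow cells at 0.235 times their libraries' median, had 3.68 and 4.72 in uninjured 2 and 3 and 4.67 and 5.31 in injured 2 and 3. Its values before and after injury lay close together, all above those of cluster 2 before injury. It was left unnamed for its low depth, and the part of doublets and free DNA in either cluster was not tested. Cluster 14 had too few cells after injury for this comparison. Its values were 21.9, 21.6 and 11.9 in injured 1 to 3, from only 5, 1 and 8 cells. Before injury they were 0.268, 0.821 and 1.06 in uninjured 1 to 3, from 9, 18 and 1 cells.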

How the data were processed

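The deposited fragments files list, per the file headers and columns, each fragment's position, barcode and count of read pairs; the authors made them with Cell Ranger 2.0.0 on build mm10, per the submitters' processing notes, and the aligner is not given in the sources used here. The counts used were fragment ends, both ends of every listed fragment, summed per region over barcodes with 2000 or more fragments. CPM are per 1000000 such cut sites. The deposited peak matrices and barcode lists were not used, since their peaks carry no coordinates in the files. All fragments ended within GRCm38 chromosomes, so GRCm38 sequence (RefSeq) and GENCODE M21 genes were used.

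Regions and promoters were tested with edgeR 4.0.16 (quasi-likelihood, TMM, its filter on low counts, Benjamini-Hochberg) in R 4.3.3, with DESeq2 1.42.0 as an alternative, and the steps were tested on simulated data. Replicates are labelled biological replicates. Cells (barcodes with at least 20% of cut sites in open regions) were clustered by TF-IDF, SVD and Leiden (leidenalg 0.10.2, resolution 0.5) and thinned to 1000 cut sites. The regions, motifs and gene lists were chosen with earlier results of these data known. Regions named are the 10 with the highest injured mean, the genes with the most regions, listed genes nearest to a region (1 of them is not reported here), and those just inside or outside each limit. Intervals cover counting error only.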

Additional observations from a re-analysis of the deposited data

Results flagged for a closer look

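Fragments with the same barcode and the same ends occur in libraries of both groups. Uninjured 3 and injured 3 listed 754280 in common, a signal outside the measurement used for the report's comparisons. Of the fragments at the 458 regions in uninjured 1 to 3, 5.39%, 0.992% and 4.51% were also listed in an injured library. The origin of the shared fragments was not tested.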

How the results depend on the processing

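Of 88 recomputed values, 64 stayed within the range set for no change and 0 reversed, though counts, shares and levels have no sign to reverse. That range was wide, and took in 628 regions for 458 and a median injured level of 1.48 CPM for 2.38 CPM. It also took in 313 regions called by edgeR for 458. A like number can also hide other regions. With CPM over cut sites in open regions 491 regions met the limits, of which 221 were among the 458, and with libraries thinned to equal cut sites 493 did, of which 322 were. Limits of 0.2 and 1.5 CPM left 60 regions, 0% of them within 1 kb of a start, with a median injured level of 3.53 CPM, and limits of 0.5 and 1 CPM gave 1286. Leaving out each library gave 468 to 1266 regions, with 748 without uninjured 2, 847 without uninjured 3 and 1266 without injured 3. The share with AP-1 letters was 71.8% in whole regions and 58.7% within 200 bp around the summit (29.99% and 16.5% of all open regions), and 64.0 to 67.0% with each library left out. The share within 1 kb was 5.24% with any annotated start and 7.86% within 5 kb. Left-out libraries gave 0 to 458 regions called higher by edgeR, 7 to 29 nearest promoters called higher and 0 to 8 called lower. Promoter windows of 500 bp gave 2 called lower. With the replicate number as a block, 458 regions, 29 promoters higher and 19 promoters lower were called, of 397 tested, beside 4.17% and 6.08% of all promoters. Same-numbered samples deviated together with correlations of 0.0024, 0.205 and 0.216. Uninjured 2 correlated with injured 1 (0.201) as with injured 2, and at -0.307 with injured 3. Uninjured 3 stood at -0.180 and -0.102 with injured 1 and 2. Uninjured 2 and 3 thus followed the libraries that share fragments with them. Uninjured 1 did not, at -0.082 with injured 2 and 0.057 with injured 3. The numbers were not taken to pair the samples, and a batch common to some libraries was not tested. 2 settings were chosen after seeing the data: without fragments listed in 2 libraries there were 464 regions, and thinning to 4000 cut sites gave 1.80 cut sites in the regions per 1000 in an injured cell against 1.75.

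Depth limits the uninjured values, which rest on 0 to 9 cut sites per region and library, so small differences among regions before injury were not detectable. The set's size depends most on injured 3 among the libraries left out, the injured library with the smallest share of cells in clusters 1 and 5. The cause of these changes was not tested.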
